A study of Mus musculus with 12 samples.

Results

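Loss of LRF in thymic precursors of intraepithelial lymphocytes (IELp) was read from 6 of the 12 RNA sequencing libraries of the series, 3 from KO and 3 from control cells, across the 48663 gene rows of the deposited count table. All mice were on the C57BL/6 background and carried floxed alleles of Lrf. KO cells also carried Cd4-Cre, a recombinase made in developing T cells from the stage at which CD4 is first expressed, and the controls did not. From each thymus sample 40000 cells were sorted as TCRβ-positive cells that lacked CD4, CD8α and CD44, were high for CD5 and PD-1 and carried CD122 and H-2Kb. No other contrast of the series is one in which genotype alone differs. The other 6 libraries, of CD8αα T cells, came from gut (control) or spleen (KO) and were used only where named.

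LRF, encoded by Zbtb7a, is a transcription factor with a BTB domain and zinc fingers that binds GC-rich DNA and recruits corepressor complexes such as NuRD. It is known for silencing fetal globin genes in red cell precursors, for restraining Notch signals in early lymphoid cells and for acting beside its relative ThPOK (Zbtb7b) in CD4 T cells. IELp are thymocytes selected by strong signals through the T cell receptor. They lose CD4 and CD8 and later seed the gut as CD8αα lymphocytes.

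Each of the 6 libraries held between 13578608 and 18961344 counts assigned to genes, and 14629 of the 24138 genes with a count had enough counts to be tested. Levels are given in CPM, the counts of a gene scaled to the total of gene counts in its library. Changes are log2 ratios of KO over control from edgeR's quasi-likelihood test, with their SE and a Benjamini-Hochberg adjusted p over all tested genes, and a gene passed at an adjusted p under 0.05. The labels do not say that the 3 libraries of a group came from separate animals, so a p-value here is set against the spread of the sampled libraries alone, which may be technical. Control replicate 3 stood apart at several genes, such as H2-Q6, Igf2 and Capn11 below, and the counts of genes higher and lower without it were 871 and 937.

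Zbtb7a (chr10:81135220-81152995, plus strand) was the check of the labels. It stood at 77, 68.5 and 80.7 CPM in the control libraries and 50.8, 43.8 and 42 CPM in the KO libraries. All KO libraries lay below all controls (log2 ratio -0.71, SE 0.10, edgeR adjusted p = 0.000156), and transcript remained in KO cells. Which exons were floxed is not given in the sources used here. Zbtb7b, which encodes ThPOK, stood at 2.46, 2.70 and 0.957 CPM in the control libraries and 1.58, 2.77 and 1.42 CPM in the KO libraries, with overlapping groups (log2 ratio -0.08, SE 0.40, edgeR adjusted p = 0.931).

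In KO cells 948 genes were higher and 963 lower. Over all tested genes 6.48% were called higher, 6.58% lower and 13.1% in either direction, and the median log2 fold change was -0.005. These shares are the background against which each gene list below is read. Most calls were small: less than 1.5-fold separated the groups for 621 higher and 503 lower genes. Changes of at least 2-fold were seen in 200 higher (1.37% of tested genes) and 218 lower genes (1.49%). Changes of at least 4-fold were seen in 89 higher and 36 lower genes, and changes of at least 16-fold in 14 higher and 3 lower genes. The number called rested in part on single libraries. Without KO replicate 2 or 3 the higher genes numbered 591 or 615, and without control replicate 2 the lower genes numbered 635.

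**Figure D1:**
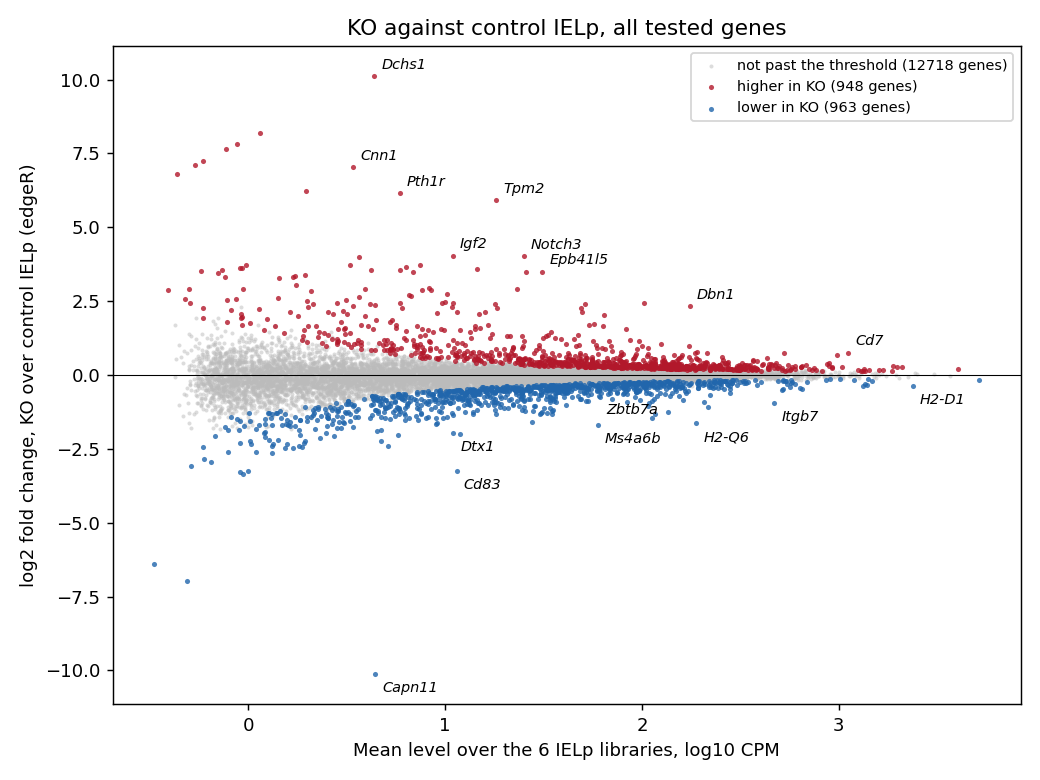
log2 fold change (KO over control IELp, edgeR) of each of the 14629 tested genes against its mean level over the 6 libraries (log10 CPM), with 948 higher genes in red and 963 lower genes in blue. The points beyond about 6 in either direction are genes with few or no counts in 1 group, such as Dchs1 and Capn11, whose fitted fold changes depend on the prior count.

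Near the top of the changes, 4 genes were almost silent in control IELp and were present in every KO library. Dchs1, a giant cadherin of planar cell polarity (chr7:105752990-105787654, minus strand), had no counts in any control library and stood at 10.5, 8.91 and 6.70 CPM in the KO libraries. With 3 counts over the control group as the floor, it was at least 129-fold higher in KO (edgeR adjusted p = 2.60e-07). Cnn1, calponin of smooth muscle (chr9:22099216-22109630, plus strand), had 2 counts over the 3 controls and 5.48, 7.59 and 7.28 CPM in the KO libraries, a ratio of 155 with a 95% counting interval of 42.5 to 1280 (edgeR adjusted p = 4.47e-07). Pth1r, the receptor for parathyroid hormone (chr9:110722085-110747145, minus strand), stood at 0.0682, 0.118 and 0.295 CPM in the control libraries and 12.7, 11.6 and 10.3 CPM in the KO libraries (log2 ratio 6.17, SE 0.33, edgeR adjusted p = 1.75e-08). Hfm1, a helicase of meiotic recombination (chr5:106840192-106926321, minus strand), stood at 0.478, 0.353 and 0.589 CPM in the control libraries and 6.40, 4.88 and 7.01 CPM in the KO libraries (log2 ratio 3.71, SE 0.32, edgeR adjusted p = 1.74e-06). The groups did not overlap for any of the 4, and 29.7% of all tested genes had groups that do not overlap. In the other direction Capn11, a calpain protease (chr17:45630204-45659325, minus strand), stood at 11.3, 11.1 and 3.98 CPM in the control libraries and had no counts in KO cells, which makes it at least 152-fold lower in KO (edgeR adjusted p = 5.12e-06). In all, 7 genes called higher had no counts in the controls and 3 called lower had none in KO cells. The fitted fold changes of such genes depend on the prior count and are no bound. In the CD8αα T cells, where tissue differs as well as genotype, all 3 KO spleen libraries lay above all 3 control gut libraries for Dchs1, Cnn1, Pth1r and Hfm1, and below them for Capn11. The same was read for the 15 largest rises and 15 largest falls with at least 10 CPM and no overlap. Of the rises 13 lay above and 1 below. Of the falls 4 lay below, and 8 lay above, against their direction in IELp. The share over all genes was not counted, so these counts do not show whether the changes in IELp carry over. No test was made of these comparisons.

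**Figure D2:**
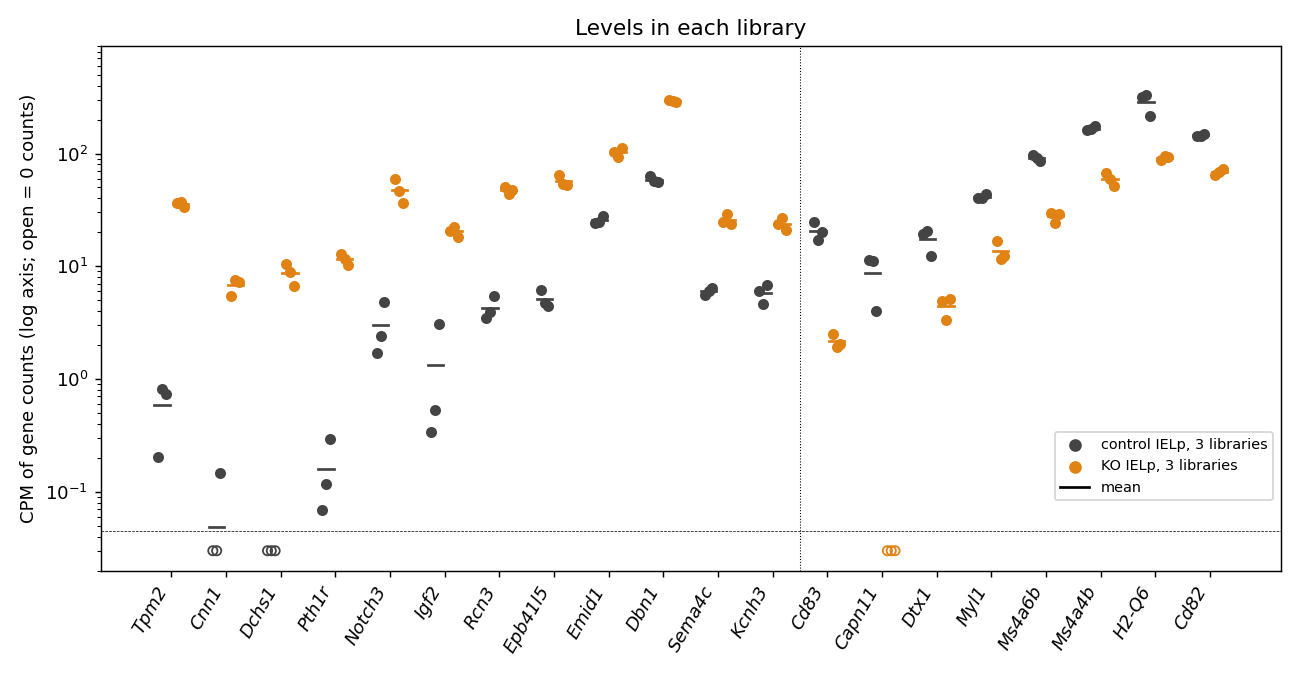
Level of 20 genes in each of the 6 IELp libraries (CPM, log axis), with open circles for 0 counts and bars for group means. To the left of the dotted line are 12 genes higher in KO and to the right 8 genes lower in KO. In none of the 20 do the groups overlap, but many were named by a rule that required this. Of all tested genes, 29.7% had groups that do not overlap.

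LRF is known to bind sites with the core GACCC, so the 250 bases before each start that RefSeq gives a gene were searched for these letters on both strands, and a gene with several starts counts as holding the core if any of them does. The promoters of 3 genes with large rises and 1 RefSeq start are shown, in lower case with GACCC, or its reverse complement GGGTC, in capitals. Sequences are from RefSeq (GRCm38.p6) and read 5′ to 3′ on the strand of the gene. They lie at chr9:22099003-22099252 (plus strand, Cnn1), chr4:43523555-43523804 (minus strand, Tpm2) and chr17:32166891-32167140 (minus strand, Notch3). The RefSeq start can lie inside the gene as GENCODE M21 draws it, and the sequences of Cnn1 and Tpm2 then overlap the gene interval given in the text.
Cnn1: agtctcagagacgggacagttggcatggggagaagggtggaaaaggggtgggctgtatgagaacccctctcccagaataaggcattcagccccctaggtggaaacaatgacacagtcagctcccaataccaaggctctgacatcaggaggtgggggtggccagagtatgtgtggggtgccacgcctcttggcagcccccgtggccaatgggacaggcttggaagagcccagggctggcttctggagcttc
Tpm2: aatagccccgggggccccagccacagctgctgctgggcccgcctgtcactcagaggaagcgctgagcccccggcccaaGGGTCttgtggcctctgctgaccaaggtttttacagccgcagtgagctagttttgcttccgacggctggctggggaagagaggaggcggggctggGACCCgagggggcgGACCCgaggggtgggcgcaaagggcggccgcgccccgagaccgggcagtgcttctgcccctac
Notch3: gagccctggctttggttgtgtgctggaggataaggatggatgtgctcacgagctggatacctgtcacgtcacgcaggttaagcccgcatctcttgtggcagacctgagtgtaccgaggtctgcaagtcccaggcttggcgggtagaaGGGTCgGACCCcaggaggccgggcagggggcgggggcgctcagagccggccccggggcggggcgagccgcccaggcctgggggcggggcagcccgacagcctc
Cnn1 has no match, Tpm2 has 3 and Notch3 has 2. Hfm1, whose promoter is not shown, has 1. A promoter was given for 9404 tested genes, and 50.9% of these held the core. It was in 57.1% of the 702 genes called higher and in 50.7% of the 681 called lower. It was in 68.4% of the 133 genes called higher by at least 2-fold and in 46% of the 139 called lower by at least 2-fold. Of the 63 genes called higher by at least 4-fold 66.7% held it. Among the 14 lower genes with a promoter in the MHC class I list below, 9 held it too (64.3%). The median GC content was 59.9% over all genes, 62.4% in the higher and 59.4% in the lower genes, and 63.2% and 55.0% in those changed by at least 2-fold. The core is GC-rich itself, and the part of base content in these shares was not tested. A match is a description of letters and not of binding.

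Contractile and actin-bundling genes, such as Tpm2 and Cnn1, were higher in KO cells more often than lower. Of 37 tested, 11 were higher and 4 lower, with a median log2 fold change of 0.11. These proteins form or stabilise actin filaments, and several are known from muscle. Tpm2, a tropomyosin of muscle (chr4:43514711-43523765, minus strand), stood at 0.205, 0.823 and 0.736 CPM in the control libraries and 36.6, 37.2 and 33.8 CPM in the KO libraries. The lowest KO library was far above the highest control (log2 ratio 5.91, SE 0.23, edgeR adjusted p = 6.73e-10). Tagln3, a transgelin of neurons, had 2 counts over the controls and 4.69, 3.49 and 3.43 CPM in the KO libraries, a ratio of 86.5 with a counting interval of 23.6 to 720 (edgeR adjusted p = 6.84e-06). Myh10, a non-muscle myosin heavy chain, rose from 4.27 ± 0.804 CPM to 12 ± 0.780 CPM (mean ± SD of 3 libraries here and below, log2 ratio 1.51, SE 0.18, edgeR adjusted p = 4.56e-05). Actn1, an α-actinin that crosslinks filaments, rose from 73.5 ± 3.97 CPM to 109 ± 9.57 CPM (log2 ratio 0.59, SE 0.08, edgeR adjusted p = 0.000174). Cnn3, another calponin, rose from 102 ± 6.94 CPM to 155 ± 9.98 CPM (log2 ratio 0.62, SE 0.07, edgeR adjusted p = 3.71e-05). Lcp1, the plastin of leukocytes, rose by 0.19 on the log2 scale (SE 0.03, edgeR adjusted p = 0.000932). Myl1, a light chain of skeletal muscle myosin, moved the other way and stood at 40.3, 40.6 and 43.7 CPM in the control libraries and 16.8, 11.7 and 12.3 CPM in the KO libraries (log2 ratio -1.59, SE 0.13, edgeR adjusted p = 1.14e-06). The abundant tropomyosins, filamins and cytoplasmic myosins (Tpm3, Tpm4, Flna, Myh9) did not pass. The 11 higher genes were 9 to 11 with any 1 library left out, and 7 with a filter at a mean of 5 CPM, and the 4 lower genes were 2 without KO replicate 1.

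Outside that list Dbn1, drebrin, which binds actin in neurites and at the immune synapse (chr13:55473429-55488111, minus strand), stood at 63.3, 57.5 and 55.4 CPM in the control libraries and 296, 291 and 287 CPM in the KO libraries (log2 ratio 2.33, SE 0.07, edgeR adjusted p = 1.72e-11). The groups were far apart and the libraries within each nearly equal. Lsp1, an actin-binding phosphoprotein of leukocytes, rose from 762 ± 34.4 CPM to 1191 ± 21.1 CPM (log2 ratio 0.67, SE 0.04, edgeR adjusted p = 1.14e-07). Epb41l5, a FERM-domain protein that organises cell polarity and adhesion, stood at 6.14, 4.76 and 4.42 CPM in the control libraries and 64.9, 53.3 and 52.8 CPM in the KO libraries (log2 ratio 3.50, SE 0.14, edgeR adjusted p = 7.31e-10). Actb, cytoplasmic β-actin, fell by 0.16 on the log2 scale (SE 0.04, edgeR adjusted p = 0.0174), a call that was lost without control replicate 1 or KO replicate 3 (edgeR adjusted p = 0.0527 to 0.0806) and in 1 fit of all 12 libraries (edgeR adjusted p = 0.107).

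Matrix-linked genes gave the highest share of rises among those of the 62 gene lists with at least 10 tested genes. Of 31 tested, 15 were higher and 2 lower, with a median log2 fold change of 0.32, and the higher genes were 13 to 15 with any 1 library left out. The list joins proteins that lie in the extracellular matrix with enzymes and chaperones of the endoplasmic reticulum that modify collagen. Rcn3, a calcium-binding chaperone of the secretory pathway (chr7:45082913-45092221, minus strand), stood at 3.48, 3.94 and 5.45 CPM in the control libraries and 50.3, 44 and 47.6 CPM in the KO libraries (log2 ratio 3.49, SE 0.15, edgeR adjusted p = 1.20e-09). Emid1, a secreted protein with an EMI and a collagen domain (chr11:5106265-5152257, minus strand), stood at 24, 24.8 and 27.8 CPM in the control libraries and 104, 93.3 and 112 CPM in the KO libraries (log2 ratio 2.04, SE 0.10, edgeR adjusted p = 4.16e-09). In both the groups were well apart. Mfap2, a component of microfibrils, rose from 1.86 ± 0.367 CPM to 13.5 ± 0.707 CPM (log2 ratio 2.86, SE 0.20, edgeR adjusted p = 1.94e-07). Cpxm1, a secreted protein of the carboxypeptidase family, rose from 0.917 ± 0.604 CPM to 10.9 ± 0.337 CPM (log2 ratio 3.55, SE 0.32, edgeR adjusted p = 3.09e-06). Efemp2, fibulin 4, which is needed for elastic fibres, rose from 3.48 ± 0.661 CPM to 14.6 ± 1.08 CPM (log2 ratio 2.08, SE 0.18, edgeR adjusted p = 1.75e-06).

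Laminin and basement membrane genes were among the rises at lower levels: Lamc1, the γ1 chain of laminin, from 6.82 ± 1.84 CPM to 21.5 ± 1.34 CPM and Agrn, agrin, from 1.95 ± 0.227 CPM to 6.17 ± 0.605 CPM. P4ha1, a subunit of prolyl 4-hydroxylase, stood at 66.5, 65.3 and 69.3 CPM in the control libraries and 124, 118 and 120.5 CPM in the KO libraries (log2 ratio 0.87, SE 0.07, edgeR adjusted p = 7.27e-07). The lysyl hydroxylases Plod1 and Plod3 rose by 0.51 and 0.58 on the log2 scale (edgeR adjusted p = 0.00423 and edgeR adjusted p = 0.00838). The call of Plod3 was lost without control replicate 2 or KO replicate 1 (edgeR adjusted p = 0.0509 to 0.0557). The 2 lower genes were Emilin1, an elastic fibre glycoprotein that fell from 34.7 ± 5.11 CPM to 22.2 ± 1.97 CPM (log2 ratio -0.62, SE 0.12, edgeR adjusted p = 0.00353), and Lox, and 1 of them was lower without KO replicate 1 or 2. Among 21 matrix proteases and inhibitors, 4 were higher and 2 lower, with 2 higher without KO replicate 1 or 2. Ctsl, a cathepsin, rose from 41.4 ± 4.87 CPM to 77.5 ± 4.82 CPM (log2 ratio 0.93, SE 0.10, edgeR adjusted p = 1.34e-05). Ctss, another cathepsin, fell from 55.5 ± 1.63 CPM to 33 ± 1.71 CPM (log2 ratio -0.73, SE 0.09, edgeR adjusted p = 5.51e-05). Timp2, an inhibitor of metalloproteinases, fell from 203 ± 13.2 CPM to 138 ± 0.987 CPM (log2 ratio -0.53, SE 0.06, edgeR adjusted p = 3.63e-05). Of the 16 listed markers of thymic epithelium and stroma, 8 (Krt5, Krt14, Foxn1, Col1a2, Col3a1, Pdgfra, Dcn and Cdh5) had no counts in any of the 6 libraries, 3 were tested and 2 of these (Pecam1 and Pdgfrb) were lower. The call of Pdgfrb was lost in 1 fit of all 12 libraries (edgeR adjusted p = 0.108). The summed level of the list ranged from 175 to 205 CPM in controls and from 138 to 141 CPM in KO cells. Nearly all of it was Pecam1 and Epcam, of which Pecam1 is also an inhibitory receptor of T cells, and Epcam stood at 57.7, 61.3 and 67 CPM in the control libraries and 55.3, 56.5 and 56.3 CPM in the KO libraries. The part of other cells in the matrix result was not tested.

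**Figure D3:**
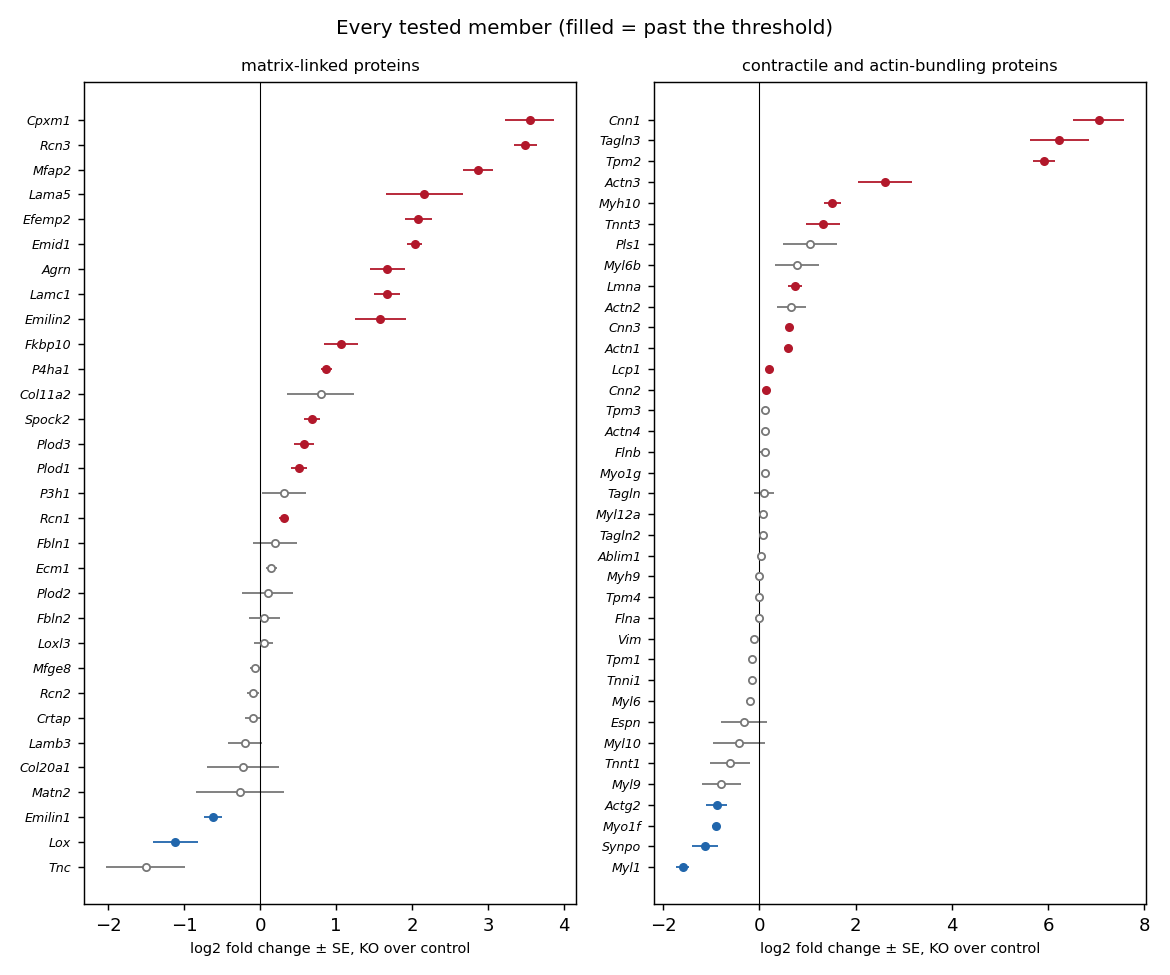
log2 fold change with its SE (KO over control IELp) of every tested gene of 2 lists, 31 matrix-linked genes on the left and 37 contractile and actin-bundling genes on the right. Filled points passed the test, 15 higher and 2 lower on the left and 11 higher and 4 lower on the right, and open points did not.

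Growth factor genes moved in both directions. Of 26 genes of the insulin-like, FGF, PDGF and VEGF axis, 6 were higher and 4 lower, with a median of -0.01, and in 1 fit of all 12 libraries 0 were lower. Igf2, insulin-like growth factor 2, which is expressed from the paternal allele (chr7:142650766-142666816, minus strand), stood at 0.341, 0.529 and 3.09 CPM in the control libraries and 20.7, 22.5 and 18.3 CPM in the KO libraries. Control replicate 3 was the highest control and still far below KO (log2 ratio 4.04, SE 0.40, edgeR adjusted p = 8.32e-06). H19, the noncoding RNA transcribed from the maternal allele of the same locus (chr7:142575529-142578143, minus strand), rose from 0.954 ± 0.0708 CPM to 4.11 ± 1.02 CPM (log2 ratio 2.12, SE 0.31, edgeR adjusted p = 0.000321). Pdgfb, a platelet-derived growth factor chain, stood at 40.2, 39.6 and 38.1 CPM in the control libraries and 80.7, 83.9 and 68.3 CPM in the KO libraries (log2 ratio 1.00, SE 0.09, edgeR adjusted p = 4.14e-06). Flt1, a VEGF receptor, rose from 0.508 ± 0.275 CPM to 3.65 ± 1.01 CPM (log2 ratio 2.85, SE 0.40, edgeR adjusted p = 0.000222). Igf1r, the receptor through which both insulin-like factors signal, fell from 12.9 ± 1.28 CPM to 8.03 ± 0.378 CPM (log2 ratio -0.66, SE 0.15, edgeR adjusted p = 0.00793), a call that was lost in 1 fit of all 12 libraries (edgeR adjusted p = 0.201). Of 21 imprinted genes 5 were higher and 1 lower, with a median of 0.09. Besides Igf2 and H19, Cd81, a tetraspanin, rose from 141 ± 11.8 CPM to 230.4 ± 15.9 CPM (log2 ratio 0.73, SE 0.07, edgeR adjusted p = 7.43e-06). Gnas, the α subunit of the stimulatory G protein, rose by 0.32 on the log2 scale (edgeR adjusted p = 0.000167). Igf2r, the clearance receptor of IGF2, was higher by 0.19 (edgeR adjusted p = 0.0247). The call of Igf2r was lost without control replicate 2 or 3 or KO replicate 1 or 2 (edgeR adjusted p = 0.0544 to 0.124) and in 1 fit of all 12 libraries (edgeR adjusted p = 0.482). Grb10, an adaptor that restrains insulin receptors, was lower (log2 ratio -2.11, SE 0.47, edgeR adjusted p = 0.00773), a call that was lost without control replicate 2 (edgeR adjusted p = 0.0632) and in 1 fit of all 12 libraries (edgeR adjusted p = 0.0676). Imprinted genes called lower numbered 2 without control replicate 1 or KO replicate 1 and 0 without control replicate 2.

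Some guidance molecules, receptors and channels known mainly from neurons or muscle were also among the rises. Receptor lists moved both ways. Of 21 hormone, peptide and amine receptor genes 4 were higher and 3 lower, with a median of -0.3. Of 34 lipid, nucleotide and orphan receptor genes 3 were higher and 7 lower, with a median of -0.15. Of the first list 2 were higher without KO replicate 1 or 2, and 1 was lower in 1 fit of all 12 libraries. Of the second 4 were lower without control replicate 2 or KO replicate 1 or 3, and in that fit. Of 23 semaphorin, plexin and ephrin genes, 5 were higher and 1 lower, with a median of 0.25. Sema4c, a membrane semaphorin (chr1:36548639-36558349, minus strand), stood at 5.60, 6.06 and 6.48 CPM in the control libraries and 24.7, 29.3 and 23.7 CPM in the KO libraries (log2 ratio 2.12, SE 0.14, edgeR adjusted p = 1.62e-07). Nrp2, a neuropilin that binds semaphorins and VEGF, rose from 46.2 ± 1.71 CPM to 83 ± 2.24 CPM (log2 ratio 0.87, SE 0.08, edgeR adjusted p = 3.13e-06). Sema4a, which costimulates T cells, rose from 221 ± 9.22 CPM to 289 ± 2.51 CPM (log2 ratio 0.41, SE 0.05, edgeR adjusted p = 9.35e-05). Plxnc1, a plexin, fell from 30.8 ± 3.86 CPM to 18.6 ± 0.771 CPM (log2 ratio -0.71, SE 0.12, edgeR adjusted p = 0.000958), and 2 genes of the list were lower without KO replicate 2. Of 40 ion channel genes, 6 were higher and 4 lower, with a median of -0.02, and the lower genes numbered 2 without control replicate 2 or KO replicate 3 and 7 without control replicate 3. Kcnh3, a voltage-gated potassium channel, stood at 6, 4.64 and 6.78 CPM in the control libraries and 23.6, 27 and 20.9 CPM in the KO libraries (log2 ratio 2.07, SE 0.16, edgeR adjusted p = 8.36e-07). Chrnb1, a subunit of the muscle acetylcholine receptor, rose from 7.54 ± 0.286 CPM to 22.6 ± 2.37 CPM (log2 ratio 1.60, SE 0.14, edgeR adjusted p = 1.71e-06). Scn4b, an auxiliary subunit of sodium channels, rose from 1.77 ± 0.748 CPM to 11.3 ± 1.93 CPM (log2 ratio 2.71, SE 0.27, edgeR adjusted p = 8.32e-06). Stim1, the calcium sensor that opens store-operated channels once the T cell receptor is engaged, fell from 74.7 ± 0.884 CPM to 55.2 ± 3.76 CPM (log2 ratio -0.41, SE 0.08, edgeR adjusted p = 0.00321). The synaptic vesicle protein Syp rose from 1.92 ± 0.109 CPM to 14.6 ± 0.653 CPM (log2 ratio 2.94, SE 0.18, edgeR adjusted p = 5.76e-08). Crhbp, a binding protein of corticotropin-releasing hormone, rose from 5.40 ± 2.93 CPM to 41 ± 10.6 CPM (log2 ratio 2.92, SE 0.29, edgeR adjusted p = 7.63e-06). Outside these classes, Mgat3, an enzyme that adds bisecting N-acetylglucosamine to N-glycans, rose from 1.02 ± 0.613 CPM to 13.8 ± 0.668 CPM (log2 ratio 3.73, SE 0.28, edgeR adjusted p = 5.60e-07). Sardh, a mitochondrial sarcosine dehydrogenase, rose from 2.25 ± 0.660 CPM to 26.8 ± 2.44 CPM (log2 ratio 3.60, SE 0.19, edgeR adjusted p = 1.11e-08).

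LRF is known to restrain Notch signals in early lymphoid cells, so the Notch pathway was read by role. Notch receptors are cut by γ-secretase after they bind a ligand, and the freed part joins RBPJ to switch on target genes. The receptor Notch3 (chr17:32120820-32166852, minus strand) stood at 1.71, 2.41 and 4.86 CPM in the control libraries and 58.9, 46.7 and 36.1 CPM in the KO libraries (log2 ratio 4.02, SE 0.26, edgeR adjusted p = 1.01e-07). Notch1, the receptor that drives early T cell development, was lower by 0.43 on the log2 scale (edgeR adjusted p = 0.0176), a call that was lost without control replicate 1 or 2 or KO replicate 2 or 3 (edgeR adjusted p = 0.0538 to 0.0916) and in 1 fit of all 12 libraries (edgeR adjusted p = 0.188). Among 24 tested receptors, ligands and modifiers, 3 were higher and 5 lower, with a median of -0.04. The lower genes included Lfng, a fringe enzyme that modifies Notch, which fell from 183 ± 6.04 CPM to 138 ± 5.95 CPM (log2 ratio -0.39, SE 0.06, edgeR adjusted p = 0.000517), and at smaller sizes the γ-secretase subunits Ncstn and Psen2 and the DNA-binding partner Rbpj, with log2 fold changes of -0.22, -0.32 and -0.40. The call of Ncstn was lost without control replicate 1 or 3 or KO replicate 1, 2 or 3 (edgeR adjusted p = 0.0626 to 0.139). That of Psen2 was lost without control replicate 2 or 3 or KO replicate 2 or 3 (edgeR adjusted p = 0.0907 to 0.168). That of Rbpj was lost without control replicate 1 or 2 or KO replicate 1, 2 or 3 (edgeR adjusted p = 0.0568 to 0.171), with DESeq2 (adjusted p = 0.0699) and with no filter on low counts (edgeR adjusted p = 0.061). The 5 lower genes numbered 2 without control replicate 1 or 2, 3 without control replicate 3 and 1 without KO replicate 2 or 3. The 3 higher genes numbered 1 without control replicate 2 or KO replicate 2.

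Notch targets did not move as one. Of 15 tested, 4 were higher and 2 lower, with a median of 0.05. Heyl, a repressor of the HES and HEY family, stood at 14.7, 17.8 and 15.1 CPM in the control libraries and 33.1, 34.3 and 36.1 CPM in the KO libraries (log2 ratio 1.14, SE 0.11, edgeR adjusted p = 7.63e-06). Dtx1, which encodes deltex 1 and is a target used as a readout of Notch signals, stood at 19.4, 20.7 and 12.4 CPM in the control libraries and 4.88, 3.31 and 5.12 CPM in the KO libraries (log2 ratio -1.96, SE 0.21, edgeR adjusted p = 1.99e-05). The groups did not overlap for either gene, and the directions were opposite. Hes1, the target used most often, stood at 9.14, 7.82 and 6.19 CPM in the control libraries and 5.41, 5.12 and 5.54 CPM in the KO libraries and did not pass (log2 ratio -0.51, SE 0.19, edgeR adjusted p = 0.102). Dtx3 was higher by 0.70 (edgeR adjusted p = 0.000103) and lies next to Arhgef25, Pip4k2c and other genes that were higher too. The 2 lower targets numbered 1 without control replicate 2 or KO replicate 2. An antisense transcript over Notch3 exons (Gm17276) rose by a like amount, 4.01 on the log2 scale (edgeR adjusted p = 4.78e-06), and whether the counting used strand is not given, so they cannot be told apart. The same holds for Aldoa, Anxa4, Cd81, Gnas, Hic2, Hspa1a, Il4ra, Lcp1, Lef1, Plcg1, Psmb8, Sardh and Syp. Their exons overlap those of a gene on the other strand that was called the same way. It also holds for Psmb9 and Tap1, which overlap each other.

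The list of costimulatory and CD5-type receptors, which also holds ligands and tetraspanins, had more genes lower than higher. Of 28 tested genes of the list, 10 were lower and 4 higher, with a median log2 fold change of -0.16. With any 1 library left out 8 to 10 were lower. Cd83, known for stabilising MHC class II on thymic epithelium and dendritic cells (chr13:43784775-43803132, plus strand), stood at 24.6, 17.2 and 20.3 CPM in the control libraries and 2.51, 1.93 and 2.06 CPM in the KO libraries (log2 ratio -3.24, SE 0.19, edgeR adjusted p = 4.93e-08). Cd82, a tetraspanin, stood at 143, 143 and 148 CPM in the control libraries and 65.1, 68.9 and 73 CPM in the KO libraries (log2 ratio -1.04, SE 0.07, edgeR adjusted p = 1.39e-07). Icos, the inducible costimulator, stood at 53.2, 61.1 and 52.1 CPM in the control libraries and 26.1, 28 and 27.5 CPM in the KO libraries (log2 ratio -1.01, SE 0.10, edgeR adjusted p = 5.99e-06). None of the 3 had overlapping groups. Cd28, the main costimulator of T cells, fell from 264 ± 23.9 CPM to 193 ± 13 CPM (log2 ratio -0.43, SE 0.07, edgeR adjusted p = 0.000902). Cd9, another tetraspanin, fell from 67.3 ± 2 CPM to 42.6 ± 3.27 CPM (log2 ratio -0.64, SE 0.09, edgeR adjusted p = 0.000157). Cd28, Ctla4 and Icos are neighbours on chromosome 1 and all were lower, but the call of Ctla4 was lost without control replicate 2 or KO replicate 1 or 3 (edgeR adjusted p = 0.0843 to 0.261) and in 1 fit of all 12 libraries (edgeR adjusted p = 0.0596). The rises included Cd7, a surface glycoprotein of T cells, which stood at 769.9, 878 and 872 CPM in the control libraries and 1403, 1416 and 1379 CPM in the KO libraries (log2 ratio 0.76, SE 0.05, edgeR adjusted p = 1.07e-07), and Cd81. Reads over Cd7 and the antisense transcript Gm11775, which rose by 0.75, cannot be told apart. Cd5 was higher and Cd44 lower, but both proteins were part of the sort and their transcripts are no finding.

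Among inhibitory receptors 6 of 16 were lower and 3 higher, with a median of 0.03. Lag3, which binds MHC class II, fell from 18.7 ± 2.30 CPM to 10.3 ± 1.86 CPM (log2 ratio -0.84, SE 0.16, edgeR adjusted p = 0.00226). Pecam1, which carries inhibitory motifs, fell from 128 ± 20.3 CPM to 82.7 ± 0.763 CPM (log2 ratio -0.61, SE 0.10, edgeR adjusted p = 0.000551). Cd72, an inhibitory lectin, fell from 94.3 ± 3.71 CPM to 67.6 ± 3.46 CPM (log2 ratio -0.46, SE 0.07, edgeR adjusted p = 0.000818). Vsir, which encodes VISTA, fell from 94.6 ± 7.14 CPM to 68.1 ± 3.07 CPM (log2 ratio -0.45, SE 0.08, edgeR adjusted p = 0.0015). The enzyme Entpd1 (CD39), which breaks down extracellular ATP, rose from 37.6 ± 3.97 CPM to 52.1 ± 4.23 CPM (log2 ratio 0.49, SE 0.10, edgeR adjusted p = 0.00471), a call that was lost in 1 fit of all 12 libraries (edgeR adjusted p = 0.0899). The 3 higher genes numbered 1 without KO replicate 3. Pdcd1, whose protein PD-1 was sorted on, did not pass (log2 ratio 0.06, SE 0.05, edgeR adjusted p = 0.439).

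A list of NF-κB feedback genes, which also holds adaptors and kinases of the pathway, had 7 of 23 genes lower and 2 higher. The median was -0.13, and the other 14 did not pass. NF-κB factors are held in the cytoplasm by IκB proteins until receptors of the TNF and antigen type release them. Traf1, an adaptor of TNF receptors, stood at 39.5, 38.3 and 35.9 CPM in the control libraries and 23, 18.5 and 22.8 CPM in the KO libraries (log2 ratio -0.80, SE 0.11, edgeR adjusted p = 0.000185). Nfkbid, a nuclear IκB protein needed for regulatory T cell development, stood at 32.6, 36.3 and 31.2 CPM in the control libraries and 23.6, 20.2 and 19.1 CPM in the KO libraries (log2 ratio -0.65, SE 0.11, edgeR adjusted p = 0.00133). Both falls separated all KO from all control libraries. Ikbke, an IκB kinase, fell from 179.5 ± 15.6 CPM to 141 ± 0.640 CPM (log2 ratio -0.33, SE 0.07, edgeR adjusted p = 0.00431). Traf4, an adaptor, rose from 69.9 ± 4.93 CPM to 95.8 ± 7.98 CPM (log2 ratio 0.48, SE 0.08, edgeR adjusted p = 0.00145). Nfkbia, Bcl3 and Nfkbie were lower with log2 fold changes of -0.19, -0.40 and -0.33, and Tnfaip3, Nfkb1 and Nfkb2 did not pass. The calls of these 3 lower genes rested on several libraries. That of Nfkbia was lost without control replicate 1 or 2 or KO replicate 1, 2 or 3 (edgeR adjusted p = 0.0763 to 0.0949). That of Bcl3 was lost without control replicate 2 or KO replicate 1, 2 or 3 (edgeR adjusted p = 0.0759 to 0.13) and in 1 fit of all 12 libraries (edgeR adjusted p = 0.0787). That of Nfkbie was lost without control replicate 1 or 2 or KO replicate 1, 2 or 3 (edgeR adjusted p = 0.0829 to 0.161). The 7 lower genes numbered 4 without control replicate 2 or KO replicate 2 or 3 and 3 without KO replicate 1. The 2 higher genes numbered 1 without control replicate 3 or KO replicate 1, 2 or 3.

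Transcription factors induced by agonist signals gave 7 lower and 0 higher of 24, with a median of -0.12. Id3, an inhibitor of E proteins, fell by 0.44 on the log2 scale (edgeR adjusted p = 1.09e-05). Irf4, whose level follows the strength of T cell receptor signals, stood at 3.62, 7 and 5.16 CPM in the control libraries and 1.19, 2.23 and 1.21 CPM in the KO libraries (log2 ratio -1.75, SE 0.32, edgeR adjusted p = 0.00209), and its call was lost in 1 fit of all 12 libraries (edgeR adjusted p = 0.0605). Bhlhe40, a repressor induced on activation, fell from 6.27 ± 0.212 CPM to 3.03 ± 0.656 CPM (log2 ratio -1.03, SE 0.22, edgeR adjusted p = 0.00654). The immediate early factors of the list did not pass. Nr4a1, which reports recent T cell receptor signals, stood at 508, 500.2 and 439.8 CPM in the control libraries and 551, 580.0 and 502 CPM in the KO libraries (log2 ratio 0.20, SE 0.06, edgeR adjusted p = 0.0551). Egr1, Egr2 and Myc had log2 fold changes of -0.09, -0.13 and 0.02. The 7 lower genes numbered 4 in 1 fit of all 12 libraries and 3 without control replicate 2 or KO replicate 3. Genes of the list called higher, 0 in the full set, numbered 2 with DESeq2 or with no filter on low counts and 1 without control replicate 1 or 3 or KO replicate 3. In the same class, MAPK feedback genes gave 4 lower and 1 higher of 18, with a median of -0.11. The phosphatases Dusp7, Dusp2 and Dusp4, which switch off MAP kinases, fell by 0.52, 0.33 and 0.45 on the log2 scale (edgeR adjusted p = 0.00226, edgeR adjusted p = 0.00302 and edgeR adjusted p = 0.00602). Genes of the list called higher, 1 in the full set (Errfi1), numbered 0 without control replicate 1 or 2 or KO replicate 1 or 3.

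The machinery that carries the receptor signal itself moved both ways. Of 47 proximal signalling genes 8 were higher and 7 lower, with a median of -0.01. Plcg1, the phospholipase of the pathway, rose from 328 ± 35.6 CPM to 445 ± 31.2 CPM (log2 ratio 0.46, SE 0.07, edgeR adjusted p = 0.000582). Fyn, a SRC kinase, rose from 587 ± 18.4 CPM to 694 ± 17.3 CPM (log2 ratio 0.26, SE 0.04, edgeR adjusted p = 0.00102). Lax1, an adaptor that restrains signals, fell from 112 ± 10.1 CPM to 73.5 ± 5.71 CPM (log2 ratio -0.59, SE 0.08, edgeR adjusted p = 0.000267). Ptpn7, a phosphatase that does so too, fell from 316 ± 7.40 CPM to 243 ± 15.8 CPM (log2 ratio -0.36, SE 0.06, edgeR adjusted p = 0.000636). Lck and Zap70, the first kinases of the pathway, did not pass (log2 ratio -0.04, SE 0.04, edgeR adjusted p = 0.64 and log2 ratio 0.04, SE 0.05, edgeR adjusted p = 0.692). The 8 higher genes numbered 5 without control replicate 2 or KO replicate 2 or 3. The 7 lower genes numbered 2 without control replicate 2, 3 without KO replicate 1 or 2 and 4 without KO replicate 3. With edgeR on all 6 libraries, 0 of 78 TCRα, 0 of 36 TCRβ and 0 of 15 TCRγ and δ genes passed, with 1, 3 and 2 at an unadjusted p under 0.05 and 0, 0 and 0 by DESeq2. Without control replicate 3, 1 TCRβ and 2 TCRγ and δ genes were higher, without control replicate 1, 1 TCRβ gene was lower, and with no filter on low counts 1 TCRγ and δ gene was higher. Segments are short and alike, and counts split between them are uncertain.

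MHC class I genes gave the highest share of falls among those of the 62 gene lists with at least 10 tested genes, the marker lists of cell types aside. Class I molecules present peptides that the proteasome makes and the TAP transporter carries into the endoplasmic reticulum. Of 25 tested genes of class I chains and of peptide loading, 17 were lower and 0 higher, with a median log2 fold change of -0.32, and with any 1 library left out 13 to 17 were lower. Of the 25 genes 1 was higher without control replicate 3. Nonclassical genes were among the larger falls. H2-T23, which encodes Qa-1, a ligand of CD94-NKG2 receptors (chr17:36029773-36032855, minus strand), stood at 287, 284 and 248 CPM in the control libraries and 141, 141 and 145 CPM in the KO libraries (log2 ratio -0.91, SE 0.06, edgeR adjusted p = 2.23e-07). H2-Q6, of the Qa-2 group, stood at 315, 331 and 215 CPM in the control libraries and 86.8, 95.4 and 93 CPM in the KO libraries (log2 ratio -1.62, SE 0.12, edgeR adjusted p = 4.05e-07). H2-Q7, of the same group, stood at 217, 212 and 147 CPM in the control libraries and 79.8, 79.4 and 78.4 CPM in the KO libraries (log2 ratio -1.26, SE 0.11, edgeR adjusted p = 2.52e-06). Both separate the groups, and as near copies of each other each is uncertain by itself. Among the classical genes H2-D1 stood at 2765, 2729.6 and 2598 CPM in the control libraries and 2034, 2076 and 2078 CPM in the KO libraries (log2 ratio -0.36, SE 0.04, edgeR adjusted p = 6.84e-06). B2m, the shared light chain, fell from 1521 ± 168 CPM to 1209.5 ± 96.9 CPM (log2 ratio -0.31, SE 0.07, edgeR adjusted p = 0.00736). H2-K1 was lower too, but H-2Kb was sorted on. Of the loading machinery Psmb8 and Psmb9, the immunoproteasome subunits, fell by 0.47 and 0.46 on the log2 scale (edgeR adjusted p = 4.52e-05 and edgeR adjusted p = 0.000404), and Tap1 and Tap2 by 0.30 and 0.32 (edgeR adjusted p = 0.00501 and edgeR adjusted p = 0.00201). Nlrc5, the transactivator of class I genes, stood at 240.2, 214 and 160.0 CPM in the control libraries and 139.8, 153 and 178 CPM in the KO libraries and did not pass (log2 ratio -0.36, SE 0.12, edgeR adjusted p = 0.0578), and neither did the chaperones Calr and Canx.

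The letters TTTC, any 2 bases and TTTC again are a core of the element through which interferons act on class I and other genes. They were found in the 250 bases before the start, on either strand, in 3 of the 14 lower class I genes with a promoter in RefSeq (21.4%), against 3.23% of all 9404 genes and 7.49% of the 681 called lower. These 3 promoters are shown with the match in capitals. They lie at chr17:36032702-36032951 (minus strand, H2-T23), chr17:36042743-36042992 (minus strand, H2-T22) and chr2:122147437-122147686 (plus strand, B2m), from RefSeq (GRCm38.p6) and 5′ to 3′ on the gene's strand. Those of H2-T23 and H2-T22 overlap the gene intervals of GENCODE M21.
H2-T23: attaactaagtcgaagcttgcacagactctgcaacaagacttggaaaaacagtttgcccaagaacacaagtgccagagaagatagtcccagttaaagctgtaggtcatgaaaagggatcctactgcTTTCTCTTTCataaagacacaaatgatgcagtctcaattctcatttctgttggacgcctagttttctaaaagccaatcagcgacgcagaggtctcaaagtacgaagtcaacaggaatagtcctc
H2-T22: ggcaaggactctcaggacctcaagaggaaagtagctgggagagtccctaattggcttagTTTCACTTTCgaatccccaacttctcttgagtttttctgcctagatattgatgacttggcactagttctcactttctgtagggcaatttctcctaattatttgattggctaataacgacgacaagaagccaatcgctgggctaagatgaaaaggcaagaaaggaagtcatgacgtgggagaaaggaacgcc
B2m: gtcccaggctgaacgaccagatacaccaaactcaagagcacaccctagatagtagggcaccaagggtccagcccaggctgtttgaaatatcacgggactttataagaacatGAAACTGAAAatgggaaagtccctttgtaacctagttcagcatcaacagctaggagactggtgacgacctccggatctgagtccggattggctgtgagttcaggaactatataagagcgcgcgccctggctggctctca
The match in B2m is on the opposite strand and reads as GAAA, any 2 bases and GAAA. No test was made of these shares.

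**Figure D4:**
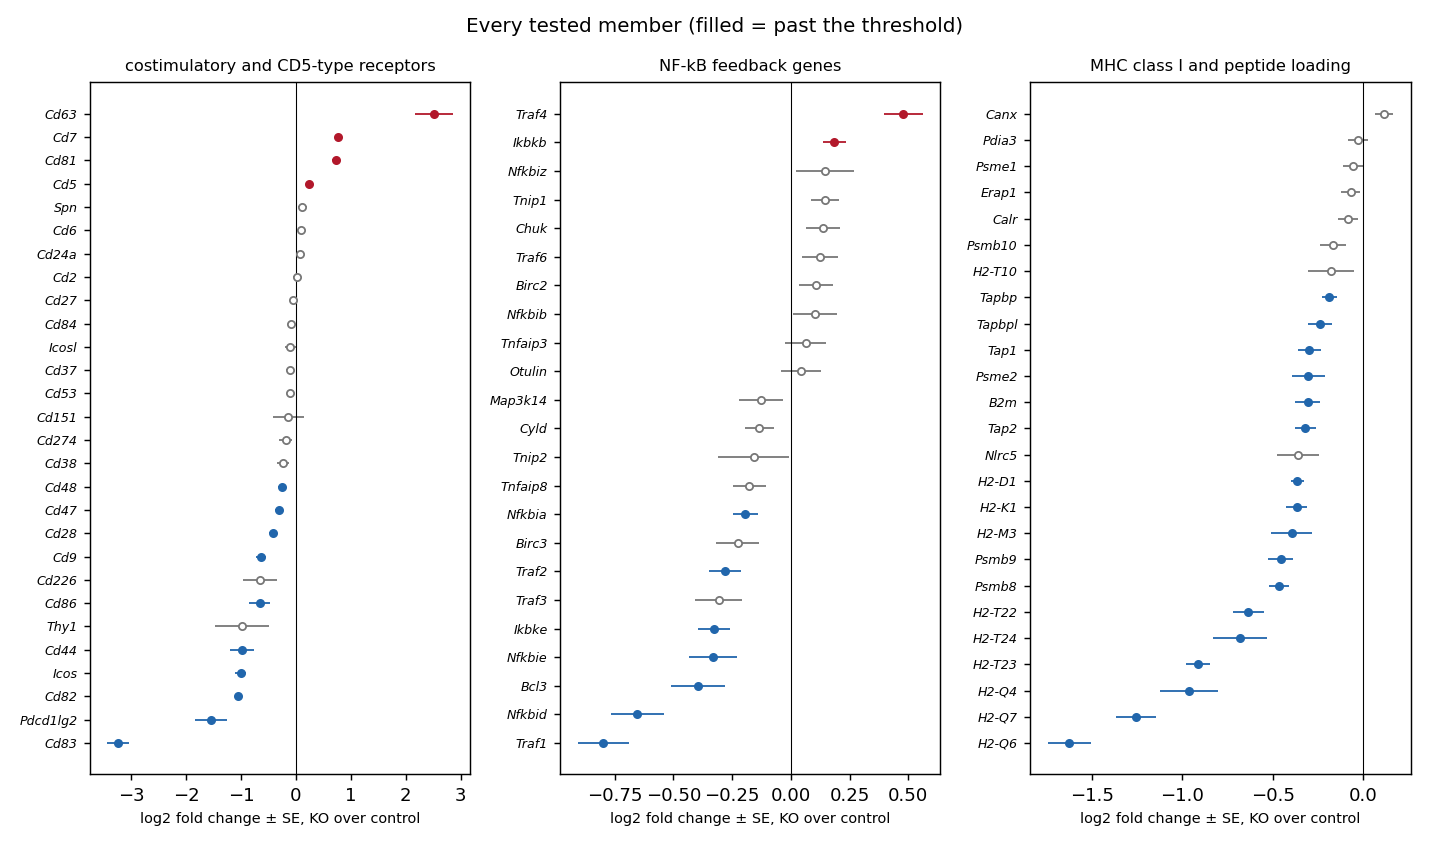
log2 fold change with its SE (KO over control IELp) of every tested gene of 3 lists. They hold 28 genes of the costimulatory and CD5-type list, 23 of the NF-κB list and 25 of the class I list. Filled points passed the test, with 4 higher and 10 lower, 2 higher and 7 lower, and 0 higher and 17 lower, and open points did not. The horizontal scales differ.

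Class I genes rise as thymocytes mature, and other genes of mature single-positive thymocytes moved with them. Of 10 such markers 8 were lower and 0 higher, and their summed level ranged from 3254 to 3527 CPM in controls and from 2302 to 2394 CPM in KO cells. H2-K1 and H2-Q7 are in both lists, and Itgb7 and Ms4a4b are among the 8. H2-K1, whose protein was part of the sort, was the largest part of the sum. Its mean was 1503 CPM in controls and 1146 CPM in KO cells, and that of Itgb7, the next largest, was 620 and 319 CPM. Fewer cells of a mature type and less RNA per cell cannot be told apart in sorted bulk samples, and the part of cell mixture in the result was not tested. Cd52, a glycoprotein of mature lymphocytes, stood at 144, 182 and 195 CPM in the control libraries and 106, 103 and 105 CPM in the KO libraries (log2 ratio -0.71, SE 0.09, edgeR adjusted p = 8.40e-05). Klf2, a factor of thymocyte exit that drives S1pr1, fell by 0.28 on the log2 scale (edgeR adjusted p = 0.00876), and its call was lost without KO replicate 3 (edgeR adjusted p = 0.0523). Ccr7 and Il7r did not pass (log2 ratio -0.43, SE 0.16, edgeR adjusted p = 0.108 and log2 ratio -0.11, SE 0.10, edgeR adjusted p = 0.557).

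Some members of small families of surface and immune proteins were lower too. Of 4 tested MS4A genes 2 were lower, with a median of -1.45. Ms4a4b, which modulates T cell signals, stood at 161, 164 and 174 CPM in the control libraries and 67.2, 59.8 and 51.4 CPM in the KO libraries (log2 ratio -1.47, SE 0.09, edgeR adjusted p = 4.93e-08). Ms4a6b stood at 96.6, 92.2 and 85.3 CPM in the control libraries and 29.9, 24.4 and 28.8 CPM in the KO libraries (log2 ratio -1.70, SE 0.10, edgeR adjusted p = 2.75e-08). They lie side by side on chromosome 19 and are similar in sequence, so each value is uncertain. Of 8 Ly6 genes 4 were lower, with a median of -0.89, and 2 with a filter at a mean of 5 CPM. Ly6e fell from 341 ± 12.3 CPM to 218 ± 0.388 CPM (log2 ratio -0.62, SE 0.05, edgeR adjusted p = 9.34e-07). Ly6c2 fell from 7.73 ± 0.629 CPM to 3.33 ± 0.0693 CPM (log2 ratio -1.19, SE 0.19, edgeR adjusted p = 0.000681). Of 7 Schlafen genes 4 were lower, with a median of -0.48, and 2 without KO replicate 1. Slfn2, which keeps T cells quiescent, fell by 0.89 on the log2 scale (edgeR adjusted p = 1.29e-06) and Slfn5 by 0.48 (edgeR adjusted p = 0.00727). Gimap4, a GTPase of lymphocyte survival, fell from 275 ± 16.6 CPM to 169 ± 17.7 CPM (log2 ratio -0.68, SE 0.07, edgeR adjusted p = 1.68e-05), while the 8 GIMAP genes as a list had a median of 0.06. Slamf6, a self-binding SLAM receptor, fell from 304 ± 13.6 CPM to 217 ± 10.7 CPM (log2 ratio -0.46, SE 0.06, edgeR adjusted p = 5.71e-05). Lgals1, galectin 1, which binds sugars on T cells, fell from 166 ± 18 CPM to 65.6 ± 2.01 CPM (log2 ratio -1.32, SE 0.08, edgeR adjusted p = 5.76e-08). Anxa2, an annexin, fell from 608 ± 5.02 CPM to 417 ± 27.2 CPM (log2 ratio -0.52, SE 0.05, edgeR adjusted p = 7.65e-06). Anxa4, another annexin, rose from 18.5 ± 4.92 CPM to 80.6 ± 9.29 CPM (log2 ratio 2.15, SE 0.15, edgeR adjusted p = 2.21e-07).

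**Figure D5:**
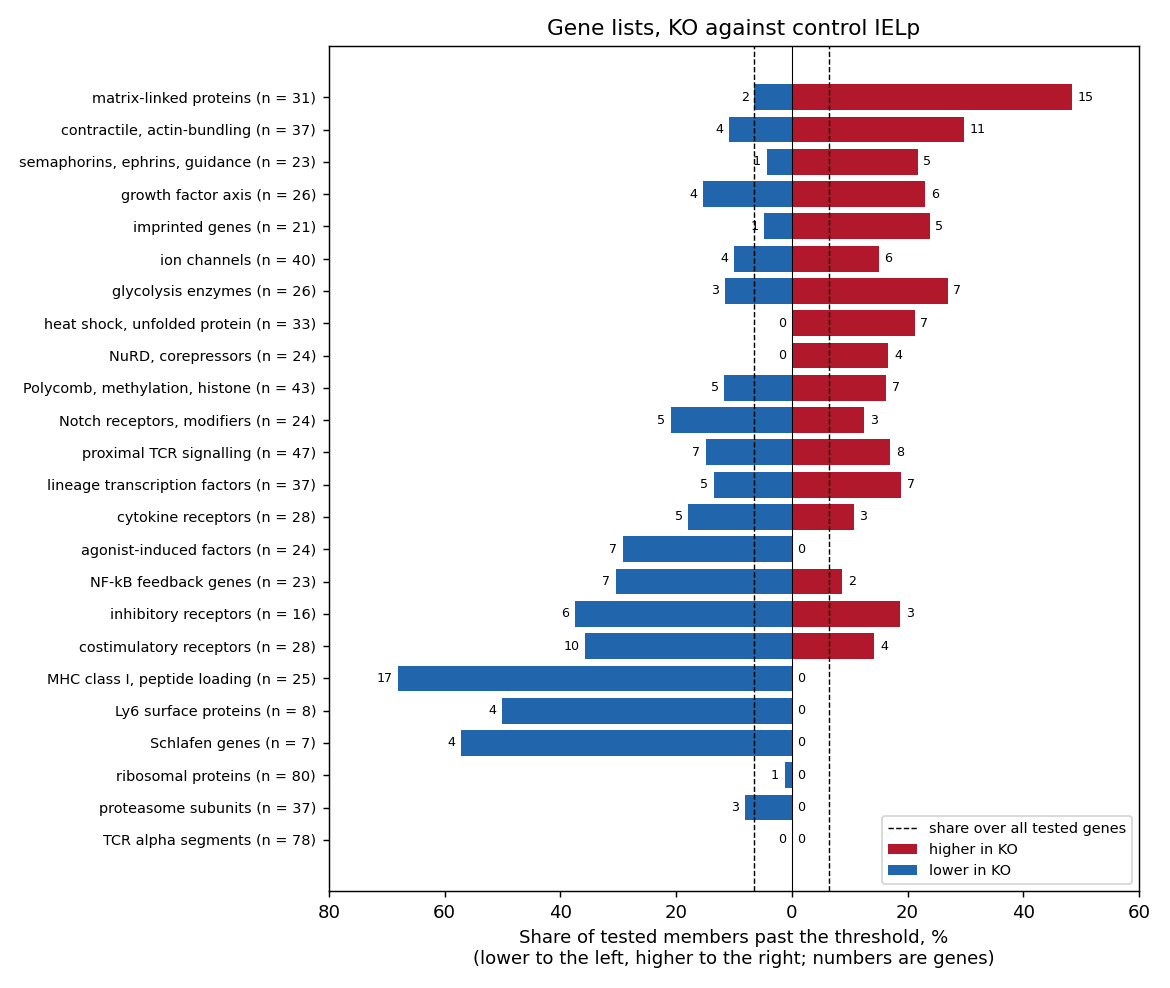
Share of tested members called lower (to the left) and higher (to the right) in KO IELp for 24 of the 62 lists, with the number of genes beside each bar and dashed lines at the share over all tested genes, 6.58% lower and 6.48% higher. Matrix-linked genes reach furthest to the right and class I genes furthest to the left.

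Cytokine receptors gave 5 lower and 3 higher of 28, with a median of -0.04. Il4ra, the IL-4 receptor, stood at 120.3, 113 and 117 CPM in the control libraries and 58, 66.8 and 78.4 CPM in the KO libraries (log2 ratio -0.76, SE 0.09, edgeR adjusted p = 7.30e-05). Il10ra, which binds IL-10, fell from 10.8 ± 1.25 CPM to 3.73 ± 1.41 CPM (log2 ratio -1.53, SE 0.23, edgeR adjusted p = 0.000378). Il21r, a neighbour of Il4ra, fell from 301 ± 6.76 CPM to 241 ± 3.23 CPM (log2 ratio -0.30, SE 0.05, edgeR adjusted p = 0.000949). Il27ra rose from 292 ± 6.31 CPM to 344 ± 19.3 CPM (log2 ratio 0.26, SE 0.05, edgeR adjusted p = 0.00513). The 3 higher genes numbered 1 without control replicate 2 or KO replicate 2. Il2rb, whose protein CD122 was sorted on, and Il2rg and Il7r did not pass. Jak3, the kinase of the common γ chain, fell from 219 ± 12.4 CPM to 169.6 ± 12.7 CPM (log2 ratio -0.35, SE 0.07, edgeR adjusted p = 0.00311). Among TNF family members Tnfrsf25, a receptor that costimulates T cells, stood at 1.23, 0.941 and 1.25 CPM in the control libraries and 5.55, 4.27 and 7.12 CPM in the KO libraries (log2 ratio 2.34, SE 0.29, edgeR adjusted p = 6.30e-05). Ltb, lymphotoxin β, rose from 307 ± 23.5 CPM to 425 ± 25 CPM (log2 ratio 0.49, SE 0.06, edgeR adjusted p = 7.69e-05). Tnfsf8, the ligand of CD30, fell from 180.4 ± 10.9 CPM to 135 ± 4.91 CPM (log2 ratio -0.40, SE 0.06, edgeR adjusted p = 0.00073) and Tnfsf14 from 8.57 ± 1.05 CPM to 3.91 ± 0.890 CPM (log2 ratio -1.10, SE 0.21, edgeR adjusted p = 0.00232). Xcl1, a chemokine made by T and NK cells, stood at 40.7, 46.2 and 44.6 CPM in the control libraries and 18.6, 17.7 and 17.6 CPM in the KO libraries (log2 ratio -1.27, SE 0.10, edgeR adjusted p = 8.25e-07). Reads over Xcl1 and an antisense transcript that fell by a like amount cannot be told apart.

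Factors of T cell lineage choice moved by small amounts in both directions. Of 37 tested 7 were higher and 5 lower, with a median of 0.05. Satb1, a chromatin organiser of thymocytes, rose from 399 ± 8.41 CPM to 479.9 ± 15.6 CPM (log2 ratio 0.29, SE 0.05, edgeR adjusted p = 0.000756). Ahr, the aryl hydrocarbon receptor that gut lymphocytes need, stood at 94.3, 79 and 110.0 CPM in the control libraries and 132, 138 and 138 CPM in the KO libraries (log2 ratio 0.55, SE 0.10, edgeR adjusted p = 0.00125). Lef1, a factor of early T cells, fell from 668 ± 10.4 CPM to 537 ± 9.17 CPM (log2 ratio -0.29, SE 0.04, edgeR adjusted p = 0.000283). Its partner Tcf7 did not pass (log2 ratio 0.05, SE 0.04, edgeR adjusted p = 0.459). Runx3, which drives the CD8 programme, was higher by 0.24 (edgeR adjusted p = 0.023), a call that was lost without control replicate 1 or 2 or KO replicate 1 or 2 (edgeR adjusted p = 0.0508 to 0.124) and in 1 fit of all 12 libraries (edgeR adjusted p = 0.0558). The 7 higher genes numbered 3 in 1 fit of all 12 libraries, 3 without control replicate 2 and 4 without KO replicate 1. Of the AP-1 and BATF factors, Batf fell by 0.90 on the log2 scale (edgeR adjusted p = 0.000457) while its relative Batf3 rose from 0.964 ± 0.134 CPM to 3.06 ± 0.797 CPM (log2 ratio 1.67, SE 0.34, edgeR adjusted p = 0.00392). Transcripts of the sorted coreceptors, Cd4 and Cd8a, differed too, and as the sort removed both proteins these are no finding.

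LRF is known to repress genes of glucose use in other cells. Of 8 genes listed as repressed by LRF in other cells, of any function, 4 had a count in these libraries and were tested. Of these 4 genes 3 were higher, with a median of 0.33. These were Pkm, Pfkp and Slc2a3, a glucose transporter. The call of Slc2a3 was lost without control replicate 1 or 3 or KO replicate 1, 2 or 3 (edgeR adjusted p = 0.0614 to 0.137), in 1 fit of all 12 libraries (edgeR adjusted p = 0.0591) and with scaling to total counts (edgeR adjusted p = 0.0532). Of 26 glycolysis genes 7 were higher and 3 lower, with a median of 0.08 and 6 to 8 higher with any 1 library left out. Pkm and Pfkp are among the 7 and so are counted in both lists. The 3 lower genes numbered 1 without control replicate 2 or KO replicate 3. Aldoa, an aldolase, rose from 283 ± 5.56 CPM to 348 ± 3.63 CPM (log2 ratio 0.32, SE 0.05, edgeR adjusted p = 0.000404). Pfkfb3, which makes an activator of phosphofructokinase, rose from 31.4 ± 1.24 CPM to 42.3 ± 3.22 CPM (log2 ratio 0.45, SE 0.10, edgeR adjusted p = 0.00604). Pdk2, a kinase that keeps pyruvate out of the mitochondrion, fell from 44.3 ± 2.71 CPM to 30.1 ± 4.17 CPM (log2 ratio -0.54, SE 0.11, edgeR adjusted p = 0.00462). The call of Pfkfb3 was lost in 1 fit of all 12 libraries (edgeR adjusted p = 0.0555), and that of Pdk2 was lost in 1 fit of all 12 libraries (edgeR adjusted p = 0.0787). Slc43a1, a transporter of large neutral amino acids, stood at 31.7, 22.4 and 23.3 CPM in the control libraries and 81, 86.8 and 76.6 CPM in the KO libraries (log2 ratio 1.68, SE 0.12, edgeR adjusted p = 2.63e-07). Heat shock and unfolded protein genes gave 7 higher and 0 lower of 33, with a median of 0.05, and 1 was lower without control replicate 2. Hspa1b, an inducible HSP70, stood at 2.32, 2.23 and 1.55 CPM in the control libraries and 17.8, 17.6 and 9.60 CPM in the KO libraries (log2 ratio 2.89, SE 0.26, edgeR adjusted p = 3.15e-06). Its near copy Hspa1a was higher too, and each is uncertain by itself. Hsp90ab1, Hsph1 and Hspa8 rose by 0.28, 0.41 and 0.31 on the log2 scale (edgeR adjusted p = 6.23e-05, edgeR adjusted p = 0.000395 and edgeR adjusted p = 0.000473).

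Chromatin regulators rose in a few members. Of 24 genes of NuRD and other corepressors, the partners of LRF, 4 were higher and 0 lower, with 8 higher by DESeq2 and 1 lower without control replicate 3. Mbd3, a NuRD subunit, rose from 136 ± 8.31 CPM to 174 ± 5.09 CPM (log2 ratio 0.38, SE 0.06, edgeR adjusted p = 0.000881) and Hdac7 from 177 ± 9.38 CPM to 216 ± 12 CPM (log2 ratio 0.30, SE 0.06, edgeR adjusted p = 0.00417). Of 43 Polycomb, DNA methylation and histone modifier genes 7 were higher and 5 lower. Ehmt2, the histone H3K9 methyltransferase G9a, stood at 21.4, 18.2 and 17 CPM in the control libraries and 51.7, 45.8 and 46 CPM in the KO libraries (log2 ratio 1.36, SE 0.11, edgeR adjusted p = 9.54e-07). The DNA methyltransferases went apart. Dnmt3a rose from 204 ± 17.4 CPM to 307 ± 24.5 CPM (log2 ratio 0.61, SE 0.07, edgeR adjusted p = 3.63e-05). Dnmt3b fell from 20.3 ± 2.09 CPM to 12.3 ± 1.71 CPM (log2 ratio -0.69, SE 0.14, edgeR adjusted p = 0.00394). The 7 higher genes numbered 4 without KO replicate 2. The 5 lower genes numbered 2 without control replicate 1 or KO replicate 1 and 3 without control replicate 3 or KO replicate 2 or 3. Of 22 tested BTB zinc finger factors 2 were higher and 3 lower, with a median of 0.13. The lower genes were Zbtb7a, Hic1 and Zbtb16, and they numbered 1 without control replicate 1 or KO replicate 3. Hic1 lost its call in these 2 fits (edgeR adjusted p = 0.053 and edgeR adjusted p = 0.0649). Zbtb10 rose from 7.75 ± 0.699 CPM to 14.5 ± 0.342 CPM (log2 ratio 0.92, SE 0.14, edgeR adjusted p = 0.000534). Hic2, which acts with corepressors, rose from 6.92 ± 2.42 CPM to 13.8 ± 0.727 CPM (log2 ratio 1.01, SE 0.21, edgeR adjusted p = 0.00501).

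Some lists stayed at or under the background of 13.1%. Of 80 ribosomal protein genes 1 was lower (median -0.09), of 37 proteasome subunits 3, of which Psmb8 and Psmb9 are in the class I list, and of 33 lysosome and autophagy genes 1 was higher and 2 lower. The lower ribosomal gene, Rps9, was called in the full set. Without control replicate 1, 5 ribosomal genes were lower and 1 was higher, and with any other library left out 0 were lower. The 3 proteasome genes numbered 5 without control replicate 1. The higher lysosomal gene numbered 2 without control replicate 2 or 3. The 2 lower ones numbered 1 without control replicate 2 or KO replicate 2 or 3. Of 19 homeobox and other developmental factors 1 was lower. The lower gene was Meis3, and 1 gene of the list was higher without KO replicate 3.

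Called genes lay next to each other in places. Among tested protein-coding genes in their order on the chromosome there were 29 runs of 3 or more neighbours called in the same direction, 11 higher and 18 lower, with 98 genes in all. The major histocompatibility complex held 4 of them. The lower runs there were Psmb9, Tap1, Psmb8, Tap2 and H2-Ob (chr17:34181987-34254414), H2-D1, H2-Q2, H2-Q4, H2-Q6 and H2-Q7 (chr17:35262730-35443773), and H2-T24, H2-T23 and H2-T22 (chr17:36005695-36042747). Between them lay a higher run of Hspa1b, Hspa1a and Gm20481 (chr17:34956436-34972156). Gm20481 overlaps exons of Hspa1a on the other strand and Hspa1a is a near copy of Hspa1b, so their counts cannot be told apart. Cd28, Ctla4 and Icos formed a run at chr1:60716800-61000320 and 4 Schlafen genes another at chr11:82951349-83070678. Of the higher runs, Slc26a10, Arhgef25, Dtx3, Pip4k2c and Kif5a lay at chr10:127171393-127263348, and Sema4a, Lmna and Mex3a at chr3:88435959-88541396. Some neighbours overlap or share reads, and no test of the number of runs was made. The coordinates are those of GENCODE M21 on mm10.

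Markers of other cells were read in the same fit. For B cells 10 markers were listed, of which Ms4a1 and Fcrla had no counts in any of the 6 libraries. The summed level of the list, nearly all of it Ighm, was 434 to 445 CPM in controls and 551 to 580.1 CPM in KO cells. Ighm, which T cells transcribe as well, stood at 417, 422 and 412 CPM in the control libraries and 532, 549.9 and 562 CPM in the KO libraries (log2 ratio 0.42, SE 0.05, edgeR adjusted p = 1.78e-05). Blk, a kinase of B and γδ T cells, was lower (log2 ratio -1.70, SE 0.47, edgeR adjusted p = 0.0281), and its call was lost without control replicate 1 or 3 or KO replicate 1, 2 or 3 (edgeR adjusted p = 0.0645 to 0.117). Ncr1, which defines NK cells, S100a8 and S100a9 of granulocytes and Adgre1 and Cd14 of macrophages had no counts. Csf1r of the macrophage list stood at 22.3, 20.4 and 17.3 CPM in the control libraries and 21.1, 23.8 and 21.9 CPM in the KO libraries and did not pass, and Klrb1c of the NK list was lower (log2 ratio -1.50, SE 0.23, edgeR adjusted p = 0.000525). Of 12 regulatory T cell markers 4 were lower and 0 higher, with a summed level of 1086 to 1237 CPM in controls and 1016 to 1067 CPM in KO cells, which do not overlap. Of all tested single genes, 29.7% had groups that do not overlap. Most of the sum was Tnfrsf9 and Ikzf2, and neither passed. Their means were 497 and 379 CPM in controls and 453 and 355 CPM in KO cells. The call of Tnfrsf18 among the 4 lower markers was lost without KO replicate 2 (edgeR adjusted p = 0.0658), and that of Lrrc32 was lost without control replicate 1 or KO replicate 2 (edgeR adjusted p = 0.0764 to 0.0933) and in 1 fit of all 12 libraries (edgeR adjusted p = 0.102). Foxp3 was present at 41.4, 34 and 43.3 CPM in controls and 27.5, 32.1 and 33 CPM in KO cells and did not pass (log2 ratio -0.33, SE 0.11, edgeR adjusted p = 0.0742). Of 10 markers of invariant T cells 4 were lower and 1 higher. The call of Zbtb16 among these was lost without control replicate 1, 2 or 3 or KO replicate 1 or 3 (edgeR adjusted p = 0.0746 to 0.168), with DESeq2 (adjusted p = 0.0806), with RLE scaling (edgeR adjusted p = 0.0506) and in 1 fit of all 12 libraries (edgeR adjusted p = 0.0799), and that of Slamf1 was lost without control replicate 2 or KO replicate 2 or 3 (edgeR adjusted p = 0.0704 to 0.0887) and in 1 fit of all 12 libraries (edgeR adjusted p = 0.0976). Their part in the falls of Icos, Lag3 and the NF-κB genes was not tested. Kit, Epcam, Rag1 and Dntt, genes of earlier thymocytes or of other cells, were not called.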

How the data were processed

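RNA of 3 control and 3 KO IELp samples, each of 40000 sorted cells, was made into libraries with the SMARTer Ultra Low and Nextera XT kits and sequenced as 76 base pairs from both ends, per the labels' protocols. The authors deposited 1 table of whole-number counts per gene and 1 of normalised values, called FPM. The submitters' processing notes name bcl2fastq 2.17, Trimmomatic, STAR, HTSeq, DESeq2 and mm10. No setting, strand rule or annotation is named in the sources read here. The deposited FPM values are equal to CPM, counts scaled to the total of gene counts, to within 4.99e-06. Of all counts, 39.0 to 40.1% were in genes. The 5 summary entries of the table, which hold reads in no feature (41.5 to 42.5%), not unique reads (16.7 to 18.8%) and ambiguous reads among others, were left out.

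Counts of the 6 libraries were tested with edgeR 4.0.16 in R 4.3.3 (TMM scaling, filterByExpr, quasi-likelihood test, no covariates), with Benjamini-Hochberg adjustment over 14629 genes and a threshold of 0.05. On simulated counts of 14423 genes the test recovered 58.5, 82.1 and 95.4% of genes changed by 1.5, 2 and 4-fold, and 5.49% of its calls were false. With 3 libraries against 3, an exact permutation test of a single gene cannot go below 0.1. Alternatives were DESeq2 1.42.0, limma 3.58.1 on log2 of the deposited FPM with a pseudocount of 1 or 0.1, other scalings and filters, the replicate number as a block, all 12 libraries in 1 fit and each library left out. Counting intervals and floors cover counting error only, at 3 counts over a group for a group at 0.

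The genes and the 62 lists were chosen with earlier results of these data known. Named genes are the 15 largest rises and falls with at least 10 CPM and no overlap, the 10 largest changes of CPM in each direction, up to 5 called genes of each list with the smallest adjusted p (2 of the highest level where fewer than 2 passed), genes at most at 0.5 CPM in 1 group and at least at 5 CPM in the other, and Zbtb7a and Zbtb7b. Outside that rule, and after their values were seen, the following were named: Actn1, Cnn3, Myh10, Flna, Myh9, Tpm3, Tpm4, Agrn, Lamc1, Emilin1, Lox, Plod1, Plod3, Pdgfrb, Igf2r, Stim1, Ncstn, Psen2, Rbpj, Hes1, Cd28, Cd9, Ctla4, Nfkbia, Bcl3, Nfkbie, Tnfaip3, Nfkb1, Nfkb2, Nr4a1, Egr1, Egr2, Myc, Lck, Zap70, Tap1, Tap2, Nlrc5, Calr, Canx, H2-T22, Cd52, Klf2, S1pr1, Ccr7, Il7r, Il2rg, Runx3, Tcf7, Foxp3, Tnfrsf9, Ighm, Blk, Csf1r, Klrb1c, Kit, Epcam, Rag1 and Dntt, together with antisense partners, genes of the sort and members of neighbour runs.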

Additional observations from a re-analysis of the deposited data

How the results depend on the processing

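The count of genes higher in KO ranged from 591 to 871 over the 6 fits that left out 1 library and the count of genes lower from 635 to 937. It moved by over 1.5 times without KO replicate 2 (591 higher), without KO replicate 3 (615 higher) and without control replicate 2 (635 lower). Genes higher at least 2-fold numbered 159 to 224 and genes lower at least 2-fold 176 to 237 in these fits. With a filter at a mean of 5 CPM they numbered 97 and 87, as fewer genes were tested, and with limma on log2(FPM + 1) 125 were lower by at least 2-fold, as the pseudocount shrinks the change of low genes. No alternative turned the direction of a called gene under the naming rule. Of these 259 genes 182 passed in all 15 alternatives in which they were tested and 77 lost their call in 1 or more.

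Replicate numbers were shared between the groups, but libraries of the same number did not deviate together (correlations of -0.097, 0.012 and -0.057 over 11092 genes), and not every library correlated best with its own number, so the numbers were not taken as pairs. With the replicate block 760 genes were higher and 781 lower, with 195 and 202 by at least 2-fold.

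Low counts limit the genes near 0 in 1 group, whose fold changes are bounds or wide ratios, and genes with near-identical copies or antisense partners cannot be told apart in these counts.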
